A study of Mus musculus with 12 samples.

Results

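The genes described here were 38 mouse genes of cell division, matched by symbol among the 49315 genes of the count table from dorsal root ganglia (DRG). All 38 were found once, and they comprised 5 D-type cyclins and partner kinases, 5 genes of the G1/S switch, 4 cyclin-dependent kinase (CDK) inhibitors, 9 genes of DNA replication and nucleotide supply, 5 genes of the G2/M group, 8 mitotic kinase, checkpoint and spindle genes, and the proliferation markers Mki67 and Top2a. Bulk RNA-seq of poly(A) RNA was performed on DRG from 12 mice of 10 months of age, with 8 ganglia pooled into 1 library per mouse. The 6 Nf2 mice were Postn-Cre(+) with floxed Nf2 on both alleles, and the 6 DKO mice carried in addition floxed Fak1 on both alleles, a gene annotated as Ptk2, so Cre and Nf2 loss were shared by both groups. Each genotype held 3 mice labelled male and 3 labelled female. Postn-Cre acts in Schwann cells and their precursors, whereas the tissue sequenced was the whole ganglion with neurons, satellite glia, immune, vascular and connective tissue cells, and cells outside the Cre lineage kept both genes. The comparison asks whether loss of Fak, a focal adhesion kinase, alters the genes of division in ganglia in which Nf2 loss gives rise to schwannoma.

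D-type cyclins with Cdk4 or Cdk6 phosphorylate the retinoblastoma protein Rb1, which releases E2F factors and with them the cyclin E, replication and nucleotide genes of the G1/S switch. Cyclin A, cyclin B and Cdk1 then carry the cell through G2 and mitosis, where the aurora kinases, Plk1, Bub1 and the spindle motor Kif11 act. The INK4 inhibitors, among them the products of Cdkn2a and Cdkn2c, block Cdk4 and Cdk6, and merlin, the product of Nf2, restrains Schwann cell proliferation. Schwann cells, satellite glia and neurons of the adult ganglion rarely divide, whereas the precursors of red cells and granulocytes in bone marrow divide often.

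Totals ranged from 21129191 to 41250329 counts per mouse, and every one of the 38 genes had a count in every mouse, the smallest being 18. Markers that define the labelled tissue were abundant. The 11 sensory neuron markers summed to 11225 to 14014 CPM (counts per 1e6 counts of the library), the 11 Schwann cell markers to 8886 to 12776 CPM and the 6 satellite glia markers to 3395 to 6339 CPM. The deleted genes remained measurable in the mixed tissue, with Ptk2 at 65.8 to 75.5 CPM in Nf2 and 46.5 to 76.0 CPM in DKO mice (log2 fold change -0.15 ± 0.10 SE, edgeR adjusted p = 0.529) and Nf2 at 109 to 143 and 99.2 to 132 CPM. Mouse 702, an Nf2 mouse labelled male, had Xist at 496 CPM and Ddx3y at 0.525 CPM, the pattern of the mice labelled female, so results by sex are given with and without it. Mouse 649 (Nf2) and mouse 887 (DKO) stood apart, with 4.45% and 5.60% of counts from mitochondrial genes against 1.99% to 3.15% in the other 10 mice. Results of the genotype comparison and of the test against blood precursor markers are also given without both.

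Levels per length, as mean CPM per kb of exon over the 12 mice, separated the regulators of G1 from the genes of mitosis. The CDK inhibitor genes lay between 7.06 and 47.4 CPM per kb, with Cdkn1b, the gene of p27, at the top. The D-type cyclins and their kinases lay between 1.92 and 18.7 CPM per kb, led by Ccnd1. The replication genes spanned 0.469 (Tyms) to 26.6 CPM per kb (Pcna, the sliding clamp of DNA polymerase). The mitotic kinase, checkpoint and spindle genes lay between 0.204 (Cenpf, a kinetochore protein) and 1.47 CPM per kb (Aurka), and the G2/M group between 0.444 and 1.55. Mki67, the gene of the Ki-67 antigen, had 1.63 and Top2a, DNA topoisomerase II alpha, 1.01 CPM per kb. The coefficient of variation over the 12 mice (SD as a percent of the mean CPM) was 6.41% to 14.6% for the G1/S switch, 9.13% to 33.6% for the D-type cyclins and their kinases, with Ccnd1 the highest of these, and 10.3% to 25.2% for the CDK inhibitors. It was 6.52% to 34.3% for the replication genes, 20.99% to 37.2% for the G2/M group, 12.3% to 43.1% for the mitotic genes, 39.3% for Top2a and 49.1% for Mki67, the highest of the 38, so the ranges of most roles overlapped. Summed over the 12 mice, Aurkb had 453 counts and Mki67 had 5305.

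**Figure D1:**
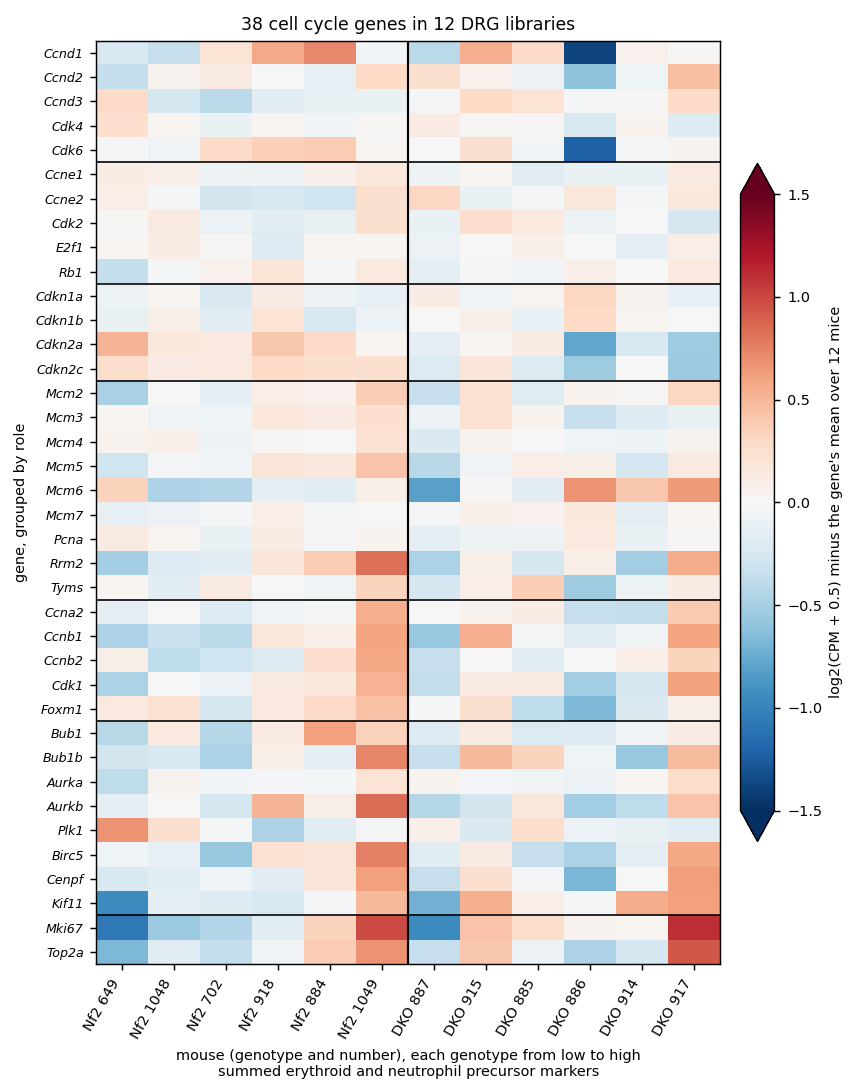
Heatmap of the 38 genes (rows, grouped by role) in the 12 mice (columns, Nf2 left and DKO right, each from low to high summed blood precursor markers), as log2(CPM + 0.5) minus the gene's mean. Mki67 runs from lowest in mice 649 and 887 to highest in mice 1049 and 917. Top2a is also highest in mice 1049 and 917 but lowest in mice 649 and 886. The rows of the G1/S switch vary by at most 14.6% (coefficient of variation).

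Promoters are shown for Mki67 and for the 4 genes whose level followed that of Mki67 from mouse to mouse past the threshold, described further on (Top2a, Ccnb1, Kif11 and the replication licensing gene Mcm2). Each is the RefSeq window from 250 bases before to 50 bases after the start on GRCm38.p6, printed 5′ to 3′ on the gene's strand. Capitals mark 3 searched motifs on either strand, namely an E2F core, the cell cycle genes homology region or CHR, and the CCAAT box. The E2F core was searched as TTCCCGC, with the further spellings TTCGCGC, whose middle letters differ, then the form TTGGCGC, which Mki67 holds, and finally the form TTGCCGC. The CHR was searched as TTTGAA, and the CCAAT box by the letters of its name. The windows were chr7:135716330-135716629 for Mki67, chr11:99024140-99024439 for Top2a, chr13:100786437-100786736 for Ccnb1 and chr6:88898731-88899030 for Mcm2, all on the minus strand, and chr19:37376132-37376431 on the plus strand for Kif11.
Mki67: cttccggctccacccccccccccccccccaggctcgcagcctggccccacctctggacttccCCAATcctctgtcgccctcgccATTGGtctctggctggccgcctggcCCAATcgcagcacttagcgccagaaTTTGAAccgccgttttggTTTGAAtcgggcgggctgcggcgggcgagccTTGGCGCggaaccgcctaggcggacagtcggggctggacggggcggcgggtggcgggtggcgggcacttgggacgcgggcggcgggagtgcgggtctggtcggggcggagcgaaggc
Top2a: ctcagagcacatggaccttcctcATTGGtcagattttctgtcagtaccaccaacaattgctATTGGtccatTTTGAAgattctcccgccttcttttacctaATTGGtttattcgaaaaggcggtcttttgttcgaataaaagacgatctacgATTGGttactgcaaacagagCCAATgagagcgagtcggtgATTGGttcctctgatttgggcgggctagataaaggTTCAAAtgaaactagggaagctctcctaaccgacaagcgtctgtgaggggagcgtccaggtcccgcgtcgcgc
Ccnb1: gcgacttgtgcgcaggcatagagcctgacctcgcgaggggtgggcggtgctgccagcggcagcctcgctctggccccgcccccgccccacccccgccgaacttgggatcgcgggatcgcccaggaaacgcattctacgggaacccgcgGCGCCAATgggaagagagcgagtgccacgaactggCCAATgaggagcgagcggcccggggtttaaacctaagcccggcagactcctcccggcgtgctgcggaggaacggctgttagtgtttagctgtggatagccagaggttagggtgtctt
Kif11: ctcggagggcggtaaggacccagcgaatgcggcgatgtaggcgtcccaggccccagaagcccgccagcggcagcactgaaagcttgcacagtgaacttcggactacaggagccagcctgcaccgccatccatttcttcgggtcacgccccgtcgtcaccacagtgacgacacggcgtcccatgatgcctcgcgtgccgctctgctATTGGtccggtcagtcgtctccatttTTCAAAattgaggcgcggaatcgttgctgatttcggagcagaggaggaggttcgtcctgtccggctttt
Mcm2: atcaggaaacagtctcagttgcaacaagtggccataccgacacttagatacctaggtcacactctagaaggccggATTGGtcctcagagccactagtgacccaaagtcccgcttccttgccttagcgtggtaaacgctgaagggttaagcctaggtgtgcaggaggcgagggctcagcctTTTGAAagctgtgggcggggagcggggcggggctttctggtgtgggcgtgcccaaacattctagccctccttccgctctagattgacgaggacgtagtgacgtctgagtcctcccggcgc
The Mki67 window held all 3 motifs, with 3 CCAAT boxes, 2 CHR and 1 E2F core. Top2a held 6 CCAAT boxes and 2 CHR, Kif11 and Mcm2 held 1 of each of these, and Ccnb1 held 2 CCAAT boxes, the first of them overlapping an E2F core. Windows were given for 30 of the 38 genes (35 windows), and Mcm4, Ccna2, Foxm1, Rb1, Aurkb, Ccne2, Ccnd1 and Ccnd2 had none. CHR and CCAAT occurred together in 10 of the 35 windows against 6.95% of all 32851 windows, and an E2F core in 12 of 35 against 9.57%. A CHR, alone or not, was in 10 of 35 windows against 17.9% of all. By role, 5 of 7 windows of the mitotic kinase, checkpoint and spindle genes held a CHR and 0 of 7 an E2F core, whereas 6 of 9 windows of the replication genes held an E2F core and 1 of 9, that of Mcm2, a CHR. In the G2/M group 2 of 3 windows held an E2F core and 2 of 3 a CHR. A letter match is a description of these windows, and binding was not measured.

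Between the genotypes, no division gene of the 38 passed the threshold by edgeR, each being tested by itself. Of the 38 genes, 14 had a higher and 24 a lower fitted level in DKO than in Nf2 mice, with a median log2 fold change of -0.067 beside 0.005 over all 18295 genes tested. By edgeR's quasi-likelihood test with Benjamini-Hochberg adjustment over all genes tested, 0 of 38 were called, where 172 genes (0.940%) were called in all. At an unadjusted p under 0.05 there were 2 of 38, Cdkn2c and Cdkn2a, against 14.9% of all genes. For 0 of the 38 did the CPM of the genotypes fail to overlap, which was the case for 1.95% of all genes tested. DESeq2's Wald test called the same 2 inhibitor genes among 4.91% of all genes, both lower in DKO, and limma voom with sample quality weights called Ccnd3 among 2.85%. In bulk tissue, fewer cells of a type and less RNA per cell cannot be told apart.

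**Figure D2:**
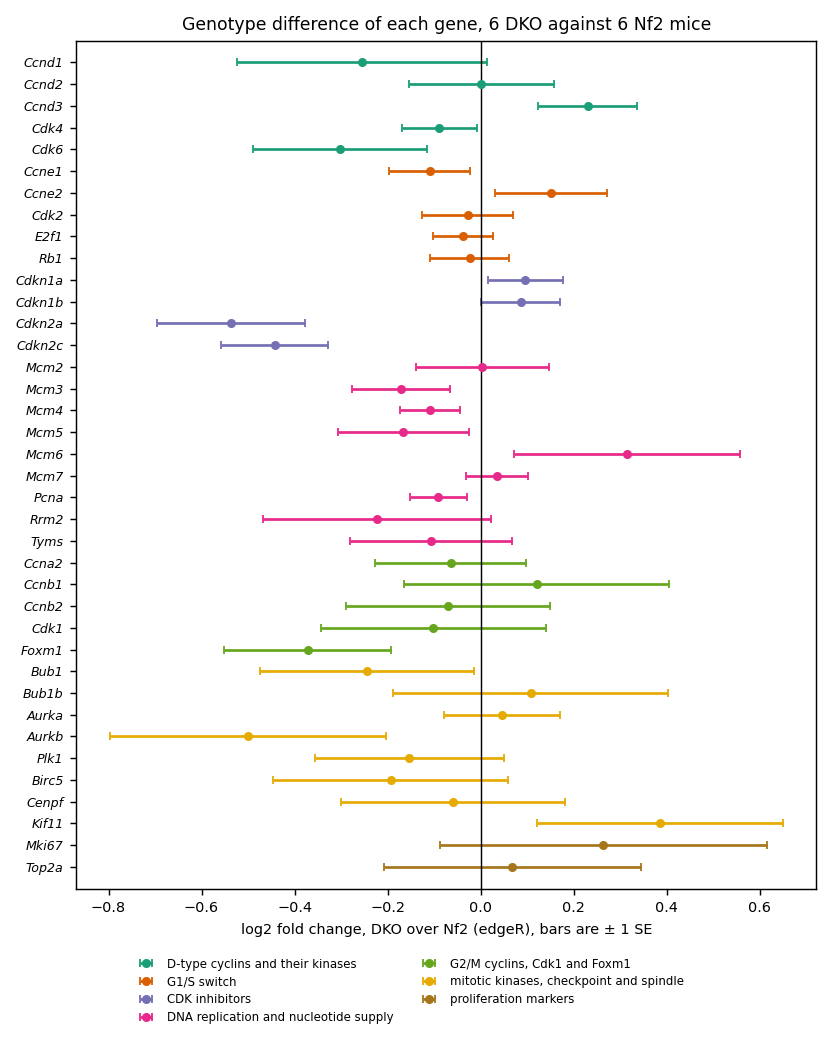
log2 fold change of each of the 38 genes, DKO over Nf2 (edgeR, points), with bars of ± 1 SE and colours by role. Cdkn2a and Cdkn2c lie farthest below 0 relative to their SE, and Mki67 has the widest bar.

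The CDK inhibitors divided into a lower and a slightly higher pair, none past the threshold. Cdkn2c encodes p18Ink4c. Its lowest, median and highest levels were 20.9, 22.7 and 23.6 CPM in Nf2 mice and 12.998, 16.6 and 21.8 CPM in DKO mice. Of the DKO mice only mouse 915 reached the range of the Nf2 mice, and the Nf2 mice differed little among themselves. The log2 fold change was -0.44 ± 0.11 (SE, 6 against 6 mice), a fold of 0.736, with edgeR adjusted p = 0.0904. It was called without mouse 915 (adjusted p = 0.0385) and by DESeq2 (adjusted p = 0.0133), and over all alternatives its adjusted p ranged from 0.0133 to 0.569.

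Cdkn2a encodes p16Ink4a and, in another reading frame, p19Arf, which stabilises p53. A count over the whole gene does not separate its products. Its lowest, median and highest levels were 8.19, 9.45 and 11.7 CPM in Nf2 mice and 4.47, 7.00 and 8.80 CPM in DKO mice. Mouse 885 was the only DKO mouse within the Nf2 range. DKO mouse 915 was almost level with its lower end, at 8.1815 CPM against 8.1855 CPM in Nf2 mouse 1049. The log2 fold change was -0.54 ± 0.16 (SE), with edgeR adjusted p = 0.127, and DESeq2 gave adjusted p = 0.0316, within a range of 0.0316 to 0.733 over all alternatives. With each mouse left out in turn the log2 fold change stayed between -0.62 and -0.44 for Cdkn2a and between -0.53 and -0.38 for Cdkn2c.

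The other INK4 genes are not among the 38. Cdkn2b, the neighbour of Cdkn2a that encodes p15Ink4b, had lowest, median and highest levels of 9.12, 10.3 and 12.3 CPM in Nf2 and 4.64, 7.95 and 10.1 CPM in DKO mice, with a log2 fold change of -0.41 ± 0.16 (SE) and edgeR adjusted p = 0.230. For Cdkn2d, which encodes p19Ink4d and was looked up after its relatives had been seen, the medians were 60.3 and 58.8 CPM and the log2 fold change was -0.12 ± 0.12 (SE, adjusted p = 0.689).

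The CIP/KIP inhibitors lay slightly higher. Cdkn1a, the p53 target gene of p21, had lowest, median and highest levels of 71.6, 79.2 and 91.1 CPM in Nf2 and 76.4, 86.3 and 103.7 CPM in DKO mice. For Cdkn1b the values were 182.3, 199.8 and 246.5 CPM in Nf2 and 200.7, 217.6 and 264.4 CPM in DKO mice. The genotypes overlapped in 5 of 6 DKO mice for both genes. The log2 fold changes were 0.10 ± 0.08 (SE, edgeR adjusted p = 0.638) and 0.09 ± 0.08 (adjusted p = 0.694).

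**Figure D3:**
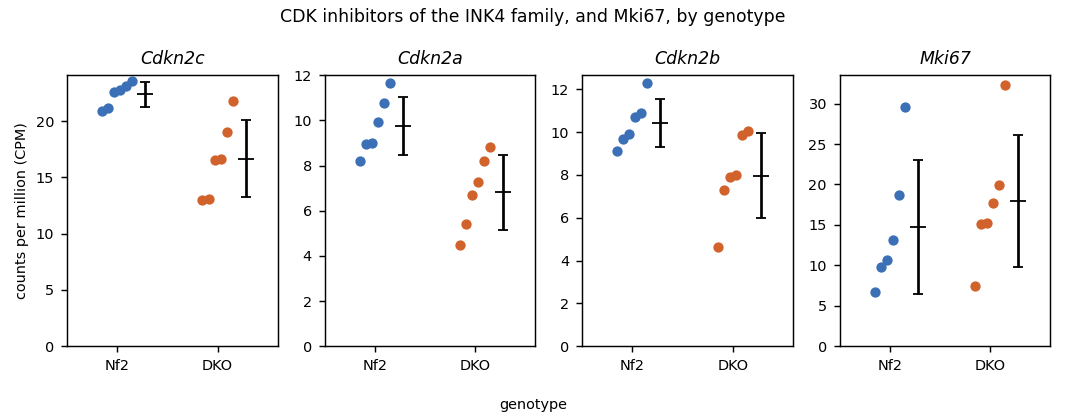
CPM of the INK4 inhibitor genes Cdkn2c, Cdkn2a and Cdkn2b and of Mki67, 1 point per mouse, 6 mice per genotype, with the mean ± SD beside the points. For Cdkn2c and Cdkn2a all but 1 DKO mouse lie below the lowest Nf2 mouse, though for Cdkn2a mouse 915 is almost level with it. For Mki67 the genotypes span nearly the same range.

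Among the D-type cyclins and their kinases, 2 of 5 were higher and 3 lower in DKO, with 0 called. Ccnd3, a cyclin of many cell types, had lowest, median and highest levels of 29.0, 34.9 and 47.0 CPM in Nf2 and 37.8, 41.9 and 47.4 CPM in DKO mice. Mouse 649 alone gave the highest Nf2 value, and the next was 35.9 CPM, below every DKO mouse. The log2 fold change was 0.23 ± 0.11 (SE, edgeR adjusted p = 0.337). It passed with limma voom (adjusted p = 0.0331) and without mice 649 and 887 (adjusted p = 0.0488). Ccnd3 shares 361 exon bases with Bysl on the other strand, and whether the counting used strand is not given in the sources used here. Ccnd1, the cyclin most abundant here, ranged from 65.4 to 136.7 CPM in Nf2 and from 31.5 to 120.9 CPM in DKO mice (log2 fold change -0.25 ± 0.27 SE, adjusted p = 0.717). Mouse 886 held the lowest value of the 12 mice both for Ccnd1 and, at 12.4 CPM, for its partner kinase Cdk6 (log2 fold change -0.30 ± 0.19 SE, adjusted p = 0.492).

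The genes of the G1/S switch varied little, with fitted log2 fold changes from -0.11 (Ccne1) to 0.15 (Ccne2) and adjusted p from 0.612 to 0.931. E2f1, the transcription factor that Rb1 holds in check, had medians of 24.6 CPM in Nf2 and 23.9 CPM in DKO mice, and Rb1 of 48.7 and 47.8 CPM. For both, all 6 DKO mice lay inside the range of the Nf2 mice.

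The replication and nucleotide genes had log2 fold changes from -0.22 (Rrm2, the small subunit of ribonucleotide reductase) to 0.31 (Mcm6), 3 of 9 being higher. Mcm4, a subunit of the replicative helicase, had the smallest p of this role. Its lowest, median and highest levels were 19.0, 20.7 and 23.4 CPM in Nf2 and 17.2, 19.7 and 20.9 CPM in DKO mice, so that the genotypes overlapped in 5 of 6 DKO mice (log2 fold change -0.11 ± 0.06 SE, edgeR adjusted p = 0.464). The 6 helicase subunits did not move as a block, since Mcm2, Mcm6 and Mcm7 had fitted changes of 0.003, 0.31 and 0.04 and Mcm3, Mcm4 and Mcm5 of -0.17, -0.11 and -0.17, none past the threshold.

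In the G2/M group and among the mitotic genes, 4 of 13 were higher and 9 lower, again with 0 called. Foxm1, the transcription factor that drives G2/M genes, had lowest, median and highest levels of 2.89, 4.13 and 5.01 CPM in Nf2 and 2.04, 3.25 and 4.30 CPM in DKO mice (log2 fold change -0.37 ± 0.18 SE, edgeR adjusted p = 0.357). Aurkb, the kinase of the chromosomal passenger complex, had 1.01, 1.38 and 2.77 CPM in Nf2 and 0.766, 0.953 and 1.94 CPM in DKO mice (log2 fold change -0.50 ± 0.30 SE, adjusted p = 0.471). In DKO mice 4 of 6 Aurkb values lay under the lowest Nf2 value, that of mouse 915 only just, at 1.008 against 1.013 CPM. Aurkb had only 18 to 74 counts per mouse. The highest fitted change of the 38 was that of Kif11, at 1.87, 3.56 and 5.87 CPM in Nf2 and 2.27, 5.23 and 6.48 CPM in DKO mice (log2 fold change 0.39 ± 0.26 SE, adjusted p = 0.543).

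The proliferation markers did not separate the genotypes. Mki67 had lowest, median and highest levels of 6.73, 11.9 and 29.6 CPM in Nf2 and 7.38, 16.5 and 32.3 CPM in DKO mice. Both genotypes held mice with low and with high levels, over nearly the same range. The edgeR log2 fold change was 0.26 ± 0.35 (SE, adjusted p = 0.782). On the log2(CPM + 4) scale the means were 4.13 ± 0.58 (SD) in Nf2 and 4.37 ± 0.54 in DKO mice, with a two-sided exact permutation p = 0.465 for 6 against 6 mice. Top2a had 5.20, 7.92 and 13.98 CPM in Nf2 and 6.09, 7.55 and 16.8 CPM in DKO mice (log2 fold change 0.07 ± 0.28 SE, adjusted p = 0.939).

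A wider list of 107 further cell cycle genes, none of them among the 38, gave the same count. All 107 were tested, 44 had a higher fitted level in DKO, and 0 were called by edgeR, with 7 (6.54%) at an unadjusted p under 0.05 against the 14.9% of all genes given above. DESeq2 and limma voom each called 1, Prim1, a DNA primase subunit, among 4.91% and 2.85% of all genes. Its lowest, median and highest levels were 11.45, 12.4 and 12.95 CPM in Nf2 and 8.73, 9.95 and 10.9 CPM in DKO mice, which did not overlap, as for 1.95% of all genes (log2 fold change -0.32 ± 0.08 SE, edgeR adjusted p = 0.0771). The lower fitted genes with the next smallest p were Cdkn2b, given above, and Chaf1b, a histone chaperone subunit (log2 fold change -0.35, adjusted p = 0.330). The higher ones were Spc24, a kinetochore protein (0.66, adjusted p = 0.209), and the opposed regulators of Cdk1 Cdc25b (0.26, adjusted p = 0.275) and Wee1 (0.42, adjusted p = 0.275).

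By sex as labelled, the 38 genes did not differ past the threshold. With genotype in the model 0 of 38 were called between males and females by edgeR, where 3 genes (0.0164%) were called in all, and 1 of 38, Cdkn1a, had an unadjusted p under 0.05 against 2.91% of all genes. Without mouse 702 there were 0 of 38, against 2.66%. The interaction of genotype with sex called 0 of 38 among 0.0109% of all genes. At an unadjusted p under 0.05 there were 5 of 38 (13.2%), against 4.78% of all genes, namely Kif11, Mcm2, Ccnb1, Birc5 and Top2a, each with adjusted p = 0.920. In females 30 of the 38 had a lower fitted level in DKO (median log2 fold change -0.27, beside 0.007 over all genes tested). In males 23 had a higher one (median 0.07, beside -0.006), or 21 without mouse 702 (median 0.018, beside -0.0105). The fitted interaction (the DKO over Nf2 difference in males minus that in females) was 1.22 ± 0.44 (SE) for Kif11. Its medians were 3.63 CPM in Nf2 and 3.96 CPM in DKO females and 3.49 and 6.18 CPM in Nf2 and DKO males, 3 mice each. Every DKO male lay above every Nf2 male for Kif11. Without mouse 702 the 2 other Nf2 males had 1.87 and 4.00 CPM and the interaction for Kif11 was 1.31 ± 0.48. In that fit 2 of the 38 genes (5.26%), Kif11 and Mcm2, had an unadjusted p under 0.05, against 5.21% of all genes. With each mouse left out in turn this count ran from 0 to 8, and it was 0 without mouse 1049, against 3.03% of all genes.

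The summed markers of blood precursors had a higher median in DKO than in Nf2 mice of each labelled sex. In females the ranges overlapped, at 137 to 596 CPM in Nf2 and 62.4 to 566 CPM in DKO mice for the erythroid list. For the neutrophil list they were 77.9 to 617 CPM and 27.4 to 340 CPM. In males every DKO mouse lay above every Nf2 mouse in both sums. The median of the summed erythroid precursor markers was 184 CPM in Nf2 males against 680 CPM in DKO males, and 277 CPM in Nf2 females against 387 CPM in DKO females. For the summed neutrophil precursor markers the medians were 65.5 CPM in Nf2 males against 279 CPM in DKO males, and 165 CPM in Nf2 females against 177 CPM in DKO females. Without mouse 702 the 2 other Nf2 males had 39.1 and 418 CPM for the erythroid markers (median 229 CPM). For the neutrophil markers they had 18.7 and 119 CPM (median 68.7 CPM). The part of these markers in the interaction was not tested.

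Across the 12 mice, Mki67 varied together with a subset of the division genes. Of 18294 other genes tested, 345 (1.89%) had a positive correlation with Mki67 on log2 CPM past the threshold (Pearson's r, permutation p, Benjamini-Hochberg adjusted over all of them), and among the 37 other members 4 did. These were Ccnb1 (r = 0.919, Spearman's rho = 0.902, permutation p = 4e-05, adjusted p = 0.0124), Kif11 (r = 0.881, rho = 0.853, permutation p = 0.00018, adjusted p = 0.0274), Top2a (r = 0.870, rho = 0.818, permutation p = 0.00015, adjusted p = 0.0249) and Mcm2 (r = 0.864, rho = 0.832, permutation p = 0.00037, adjusted p = 0.0353). Within genotypes r was 0.931 and 0.919 in Nf2 and DKO mice for Ccnb1, 0.910 and 0.856 for Kif11, 0.978 and 0.795 for Top2a and 0.908 and 0.852 for Mcm2. Without mice 649 and 917, the 2 farthest from the median of Mki67, r was 0.896, 0.804, 0.765 and 0.774, and 0 genes of the whole table passed the permutation test after adjustment. At an unadjusted p under 0.05 there were then 808 genes with a positive r (4.42%), 10 of the 37 members among them. The median r of the 37 members was 0.355 beside 0.006 over all genes.

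The other members followed in part. Rrm2 (r = 0.8002), Cdk1 (r = 0.782), Bub1b (r = 0.740), Cenpf (r = 0.726) and Mcm5 (r = 0.724) came next, with adjusted p from 0.0546 to 0.0777. The CDK inhibitors had r from -0.422 (Cdkn2a) to -0.124 (Cdkn1b). Among mitotic genes Plk1 stood alone with r = -0.566 (adjusted p = 0.176), and the lowest r of the set was that of Cdk4, at -0.665 (adjusted p = 0.101). Pcna, which also serves DNA repair, had r = -0.151.

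The genes outside the set with the highest r were led by genes of red cell precursors and granulocytes. Hemgn, a nuclear protein of blood precursors and itself on the erythroid marker list, came first (r = 0.980), followed by the red cell genes Kel (r = 0.977) and Ermap (r = 0.970). Pirb (r = 0.964), a receptor of myeloid and B cells, Rbm38 (r = 0.962), Trim10 (r = 0.958), the E2F factor E2f2 (r = 0.956), the neutrophil chemokine receptor Cxcr2 (r = 0.953) and Treml2 (r = 0.948) were also among them. These 9 genes had a mean of 1.44 to 6.93 CPM and an adjusted p of 0.00631 or 0.00915.

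Of 11 lists of cell type markers, 2 followed Mki67 past the threshold when summed and compared on the log2 scale. These were the neutrophil precursors (r = 0.937, rho = 0.895, permutation p = 4e-05, adjusted p = 0.00044 over the 11 lists) and the erythroid precursors (r = 0.883, rho = 0.853, permutation p = 0.00017, adjusted p = 0.000935). Within genotypes r was 0.935 and 0.935 in Nf2 and DKO mice for the neutrophil list and 0.925 and 0.830 for the erythroid list. Without mice 649 and 887, the 2 farthest from the median of each sum, r was 0.895 for the neutrophil and 0.803 for the erythroid list. The summed Schwann cell markers had r = -0.080 (rho = -0.133, permutation p = 0.805, adjusted p = 0.805) and the macrophage markers r = 0.236 (rho = 0.028, permutation p = 0.464, adjusted p = 0.567). The macrophage list was mixed. Its Lyz2 had 85.8 and 68.6 CPM in mice 649 and 887 against 134 and 168 CPM in mice 1049 and 917. Its C1qa ran the other way, at 58.7 and 43.3 CPM against 41.8 and 32.3 CPM. Single macrophage genes were not tested against Mki67 here. The erythroid markers, 13 of 14 found, summed to 39.1 to 596 CPM in Nf2 and 62.4 to 825 CPM in DKO mice, and the 14 neutrophil markers to 18.7 to 617 and 27.4 to 509 CPM. Hba-a1 and Hbb-bs gave most of the erythroid sum. In mouse 1049, with a neutrophil sum of 617 CPM, the largest parts were S100a9 (144 CPM), Ngp (133 CPM), S100a8 (93.0 CPM) and Ltf (91.2 CPM). Mpo and Elane had 20.5 and 8.30 CPM in that mouse. Ms4a3, on the same list, did not follow the sum. It was highest in mouse 887, at 7.00 CPM, and lowest in mouse 886, at 0.766 CPM. Epb42 was at 0 in mouse 887, Ctsg in mouse 649 and Fcnb in mouse 887, and every other marker of the 2 lists had counts in all 12 mice. Mice 649 and 887, lowest in both sums and in Mki67, also had the highest mitochondrial share and the highest summed B cell precursor markers, at 188 and 193 CPM against 102 to 153 CPM in the others.

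**Figure D4:**
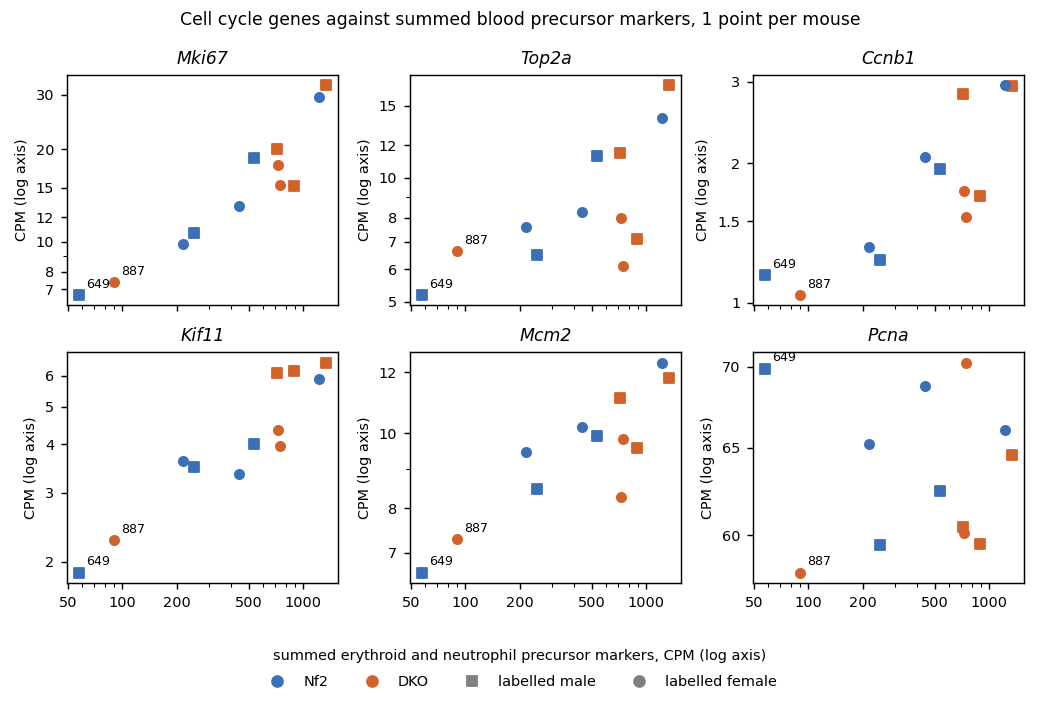
CPM of 6 division genes against the summed erythroid and neutrophil precursor markers, both on log axes, 1 point per mouse, coloured by genotype and shaped by labelled sex, with mice 649 and 887 named. Mki67, Ccnb1 and Kif11 climb with the marker sum in both genotypes, and Pcna, between 58.0 and 70.3 CPM, does not.

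A test chosen after this pattern had been seen related each gene to the log2 sum of both precursor lists with genotype in the model. Of the 38 genes 9 (23.7%) were called, near the 22.8% of all 18295 genes called in either direction. All 9 had a higher level with more precursor markers, where 11.0% of all genes were called as higher. They were Mki67, Kif11, Mcm2, Ccnb1, Rrm2, Mcm5, Top2a, Cdk1 and Rb1. Mki67 rose by 0.47 ± 0.05 (SE) on the log2 scale per doubling of the marker sum, or 1.39-fold (edgeR adjusted p = 0.000424). The slopes of the others past the threshold ran from 0.08 ± 0.03 for Rb1 to 0.35 ± 0.05 for Kif11. By role, the median slope was 0.19 for the mitotic genes, 0.16 for the G2/M group and 0.07 for the replication genes, and it lay between -0.02 and 0.01 for the D-type cyclins with their kinases, the G1/S switch and the CDK inhibitors.

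Much of the count rested on mice 649 and 887. Without both, 0.174% of all genes were called as higher, among them 1 of 38, Mki67 (slope 0.68 ± 0.09, adjusted p = 0.0174). At an unadjusted p under 0.05 there were then 15 of 38 genes (39.5%), all with a positive slope, against 3.81% of all genes, and of the 15 there were 5 mitotic, 4 G2/M and 4 replication genes besides Mki67 and Top2a. Without mouse 887 alone 1 of 38 was called, where 0.460% of all genes were called as higher, and without mouse 649 alone 3, where 0.671% were. Mki67 was called in both of these. It was also the 1 member called within Nf2 mice (slope 0.49 ± 0.06, adjusted p = 0.0288), among 0.157% of all genes called as higher, and within DKO mice (0.45 ± 0.09, adjusted p = 0.0492), among 1.00%.

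**Figure D5:**
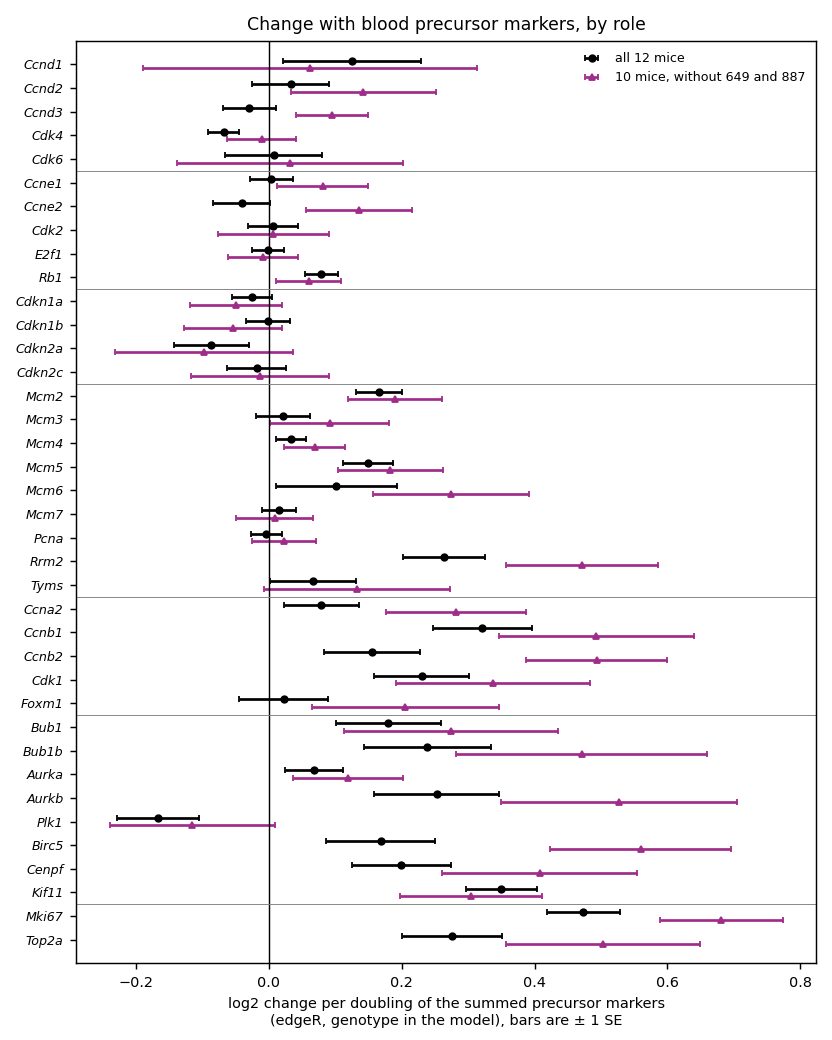
log2 change of each of the 38 genes per doubling of the summed precursor markers (points, bars ± 1 SE, edgeR with genotype in the model), with all 12 mice and with 10 mice. The slopes of Mki67, Top2a and most G2/M and mitotic genes stay above 0 without mice 649 and 887. Those of the CDK inhibitors lie slightly below 0 in both fits. The lowest of them is Cdkn2a, at -0.09 ± 0.06 with all mice and -0.10 ± 0.13 with 10.

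With the precursor level as a covariate in the genotype comparison, 0 of the 38 genes were called by edgeR, where 251 genes (1.37%) were called in all. The log2 fold change of Mki67 was then -0.12 ± 0.15 and that of Top2a -0.15 ± 0.21, and 8 of 38 had a higher fitted level in DKO in place of 14. Cdkn2c had -0.43 ± 0.12 (adjusted p = 0.0979) and Cdkn2a -0.45 ± 0.16 (adjusted p = 0.165), close to the values without it. At an unadjusted p under 0.05 there were 7 members (18.4%) in place of 2, against 16.2% of all genes in the same fit, among them Mcm5 at -0.30 ± 0.10 (adjusted p = 0.158) and Aurkb at -0.71 ± 0.26 (adjusted p = 0.182).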

How the data were processed

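Per the labels, the submitters' processing notes and the study's methods, flash-frozen DRG were sent to a commercial provider for RNA extraction, poly(A) selection and sequencing. The notes name Trimmomatic 0.36, STAR 2.5.2b, featureCounts of Subread 1.5.2 and the build GRCm38. Strand setting and treatment of reads with several matches are not given in the sources used here, which can affect the 8 members that share exon bases with a protein-coding gene on the other strand. The authors deposited raw counts, 1 whole number per gene and mouse, without normalization.

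The genotypes were compared with edgeR 4.0.16 in R 4.3.3 (filterByExpr by genotype, TMM scaling, quasi-likelihood F test, all 12 mice, no covariates), and again with limma 3.58.1 and DESeq2 1.42.0. Correlations and tables were made in Python 3.11.15. Benjamini-Hochberg adjustment ran over all genes tested, with a threshold of 0.05. Correlation p-values used 100000 resamples and the test of Mki67 alone all 924 regroupings. Gene lengths and overlaps came from GENCODE M21 on GRCm38, which held 99.5% of the identifiers, and promoter windows from RefSeq on GRCm38.p6. Libraries were separate mice, matched to genotype by the labels. CPM are counts scaled to a total of 1e6.

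The members and lists were chosen with earlier results of these data known. Named in full were members past the threshold, Mki67, Top2a, the CDK inhibitors and the 6 smallest p, and of other genes the 3 smallest p of the wider list in each direction and the 10 highest correlations with Mki67 at a mean of at least 1 CPM, of which 1 is not reported here. Other members named were chosen after their values were seen. The precursor test and the fits without mice 649 and 887, or in males without mouse 702, were added after seeing the data. The other alternatives were other scaling factors, filters, tools, sexes apart, covariates and each mouse left out in turn.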

Additional observations from a re-analysis of the deposited data

Results flagged for a closer look

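Dixon's test at the 95% level was applied to log2(CPM + 4) of the 38 genes and of the 2 summed precursor lists within each genotype, 80 groups of 6 mice in all. It set 6 values apart, where chance alone sets apart about 1 in 20 groups. Cdk6 in DKO mice was lowest in mouse 886 at 4.04, with the next mouse at 5.03. E2f1 in Nf2 mice was lowest in mouse 918 at 4.64, with the next at 4.83. Ccna2 in Nf2 mice was highest in mouse 1049 at 3.73, with the next at 3.35. Aurka in DKO mice was highest in mouse 917 at 3.10, with the next at 2.97. The summed erythroid precursor markers in DKO mice were lowest in mouse 887 at 6.05, with the next at 8.61, and the summed neutrophil precursor markers were lowest in the same mouse at 4.97, with the next at 7.50.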

How the results depend on the processing

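In the genotype comparison 172 genes were called with all mice. The count was 845 with DESeq2, 521 with limma voom, 314 without mice 649 and 887, 57 in females only, 2 in males only, 9 in males without mouse 702, and 81 to 217 with each mouse left out in turn. Of the 38 members 2 were called with DESeq2, 1 with limma voom, 1 without mice 649 and 887 and 0 to 1 with each mouse left out. Of the wider list 1 was called with DESeq2 and 1 with limma voom. For sex and for the interaction 0 members were called under every alternative run. In the precursor relation 9 members were called, 1 within Nf2 mice, 1 within DKO mice, 1 without mice 649 and 887, and 1 to 11 with each mouse left out, the fewest without mouse 887 and then mouse 649. The count of genes correlated with Mki67 was 345, 90 with Spearman's rho, 0 without the 2 mice farthest from the median, and 42 to 1370 with each mouse left out, lowest without mouse 649 and highest without mouse 1049. Without mouse 887 it was 85, and it was not computed without both mice 649 and 887. Within a genotype 6 mice cannot give a permutation p that passes the adjustment, so no count is given there. The exact permutation test of Mki67 kept its direction and missed the threshold under all its alternatives.

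The fitted log2 fold change of a member, DKO over Nf2, had the other sign than with all mice in 51 fits of other settings and 32 fits with a mouse left out. The cause was not tested. With the precursor level as covariate it was -0.024 for Ccnd2, -0.14 for Mcm2, -0.16 for Ccnb1, -0.087 for Bub1b, -0.010 for Aurka, 0.034 for Plk1, -0.12 for Mki67 and -0.15 for Top2a. In females only it was -0.23 for Ccnd2, 0.0071 for E2f1, -0.33 for Mcm2, -0.55 for Ccnb1, -0.31 for Bub1b, -0.13 for Aurka, 0.17 for Plk1, -0.27 for Kif11, -0.38 for Mki67 and -0.52 for Top2a. With limma voom it was -0.080 for Ccnd2, 0.0048 for Cdk2, -0.066 for Mcm2, -0.031 for Aurka, 0.026 for Plk1 and -0.061 for Top2a. In males only it was 0.026 for Cdk2, 0.10 for Rb1, -0.0015 for Mcm7, 0.11 for Rrm2, 0.14 for Ccna2, 0.10 for Ccnb2, 0.32 for Cdk1, 0.025 for Bub1, 0.030 for Aurkb, 0.34 for Birc5 and 0.34 for Cenpf. In males without mouse 702 it was 0.0071 for Cdk2, 0.19 for Rb1, -0.012 for Cdkn1a, 0.054 for Rrm2, 0.022 for Tyms, 0.10 for Ccna2, 0.33 for Cdk1, 0.12 for Birc5 and 0.31 for Cenpf. Without a count filter it was -0.0072 for Ccnd2 and -0.0051 for Mcm2. With sex as covariate it was -0.0009 for Ccnd2. Without mice 649 and 887 it was -0.12 for Ccnd2, -0.024 for Mcm2, 0.0045 for Ccnb2 and -0.038 for Aurka. With each mouse left out in turn it ranged from -0.10 to 0.10 for Ccnd2, -0.083 to 0.020 for Cdk2, -0.086 to 0.020 for Rb1, -0.079 to 0.086 for Mcm2, -0.16 to 0.063 for Ccna2, -0.025 to 0.31 for Ccnb1, -0.17 to 0.092 for Ccnb2, -0.29 to 0.024 for Cdk1, -0.0094 to 0.36 for Bub1b, -0.020 to 0.10 for Aurka, -0.26 to 0.031 for Plk1, -0.24 to 0.10 for Cenpf and -0.18 to 0.24 for Top2a.

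No paired analysis was possible because the genotypes share no mouse number. The SE of the log2 fold change was highest for Mki67, at 0.35 with 5305 counts in all, and next for Aurkb, at 0.30 with 18 to 74 counts per mouse. Sums of marker genes stand for cell types only as far as those genes are particular to them.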

Other observations

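In the test against the precursor level, 29 of the 107 genes of the wider list were called and 23 of them were higher with more precursor markers, where 22.8% of all genes were called and 11.0% were called as higher. Of the 107, 12 of the 40 spindle, kinetochore and cytokinesis genes were called, all of them higher, with a median slope of 0.14 per doubling. Of the 31 replication licensing and fork genes 9 were called, 8 of them higher, with a median slope of 0.008. Of the 17 other E2F, pocket protein and DREAM complex genes 5 were called, 3 of them higher, with a median slope of 0.052. Of the 19 other CDK regulators 3 were called and 0 of them were higher, with a median slope of -0.005. The difference between these roles was not tested. E2f2, also among the genes closest to Mki67, had a slope of 0.41 ± 0.05 (SE, edgeR adjusted p = 0.000937). Cdkn2d, chosen after its values were seen, had one of -0.12 ± 0.03 (adjusted p = 0.0126). Without mice 649 and 887, 0 of the 107 genes were called by edgeR, where 0.174% of all genes were called as higher. At an unadjusted p under 0.05 there were 24 of the 107, against 3.81% of all genes in the same fit. No other tool was run on this relation.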
